A study of Homo sapiens with 27 samples.

Results

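The genes described here are NFE2L2, which encodes the transcription factor NRF2, and 8 genes known as its targets: HMOX1, NQO1, GCLC, GCLM, TXNRD1, SRXN1, SLC7A11 and PTGR1. They were taken by name as known NRF2 genes, with earlier results of these data known, and all 9 had a row among the 14008 genes of the count table. The cells were teloHAEC, human aortic endothelial cells immortalised with telomerase, and the libraries counted the 3' ends of messenger RNA 2 days after Cas9 ribonucleoprotein had been electroporated into 150000 cells per replicate. Every group, the negative control included, had received Cas9 and an electric pulse. The labels describe no selection of edited cells or clones, so each library came from a treated population.

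Set A held 4 libraries with deletion of an enhancer labelled for SMAD3, a transcription factor of TGF-beta signalling, 4 libraries with a positive-control guide to HPRT, the gene of a purine salvage enzyme, and 4 libraries with a non-targeting negative control. Set B held 4 libraries with deletion of an enhancer labelled for LDAH (C2orf43), which encodes a lipid droplet hydrolase, 4 libraries with the HPRT guide and 7 libraries with the negative control. Guides flanked each enhancer, while the HPRT guide cut inside a gene. The labels do not say that the replicates of a group came from separate cultures, so p-values here measure only the spread between these libraries.

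NRF2 is held at low levels by KEAP1, an adaptor of a CUL3 ubiquitin ligase that marks it for degradation. Electrophiles and oxidants modify KEAP1, whereupon NRF2 accumulates, pairs with small MAF proteins and binds antioxidant response elements, while BACH1 competes for the same sites. Because the factor is regulated largely at the protein level, its activity is commonly read from its target genes, and in endothelium these, HMOX1 above all, are known to respond to laminar flow, haem and oxidised lipids.

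The antioxidant response element is written TGACNNNGC, where N is any base. The 250 bases before each annotated start were searched on both strands in the RefSeq promoters of build GRCh38.p14, which held 9 start regions for 7 of the 9 genes. HMOX1 and SLC7A11 were not analysed here in this respect. The motif was found at 3 of the 9 starts, those of GCLM and of 2 starts of TXNRD1, against 3830 of 35116 promoters of the same length (10.9%). The stricter form TGACTCAGC, a subset of that pattern, was found at 0 of the 9 starts and in 160 of 35116 promoters (0.456%). The matches show only where the letters of the pattern lie near these starts, and binding of NRF2 was not measured. Each match is in capitals, and the sequence is written along the gene's own strand. The match at GCLM and the downstream one at TXNRD1 are on the opposite strand and so appear reversed and complemented. The first lies at chr1:93909431-93909489 (minus strand), the second at chr12:104215655-104215713 and the third at chr12:104286905-104286963 (both plus strand).
GCLM: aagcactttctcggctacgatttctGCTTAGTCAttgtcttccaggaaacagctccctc
TXNRD1, upstream start: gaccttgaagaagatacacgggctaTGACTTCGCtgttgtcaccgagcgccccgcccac
TXNRD1, downstream start: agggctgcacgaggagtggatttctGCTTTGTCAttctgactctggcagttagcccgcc

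No promoter row of PTGR1, the gene on which most of the results turn, held either form, which says only that these letters are not in that window.

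Each library of set A held 4761002 to 7752413 counts, and each of set B held 3430481 to 6414050. Levels are given in CPM, the count relative to the library's total, scaled by trimmed means of M values (TMM). All 12 endothelial markers looked for had rows, and their summed level was 1365 to 2049 CPM in SMAD3 deletion and 1859 to 1924 CPM in the negative control of set A, and 1325 to 2147 CPM in LDAH deletion and 1097 to 2270 CPM in the negative control of set B. Of markers of other cells, 1 of 9 smooth muscle and fibroblast genes (ACTA2), 0 of 5 epithelial genes and 1 of 6 blood genes (CD68) had a row. ACTA2 stood at 28.2 to 46.6 CPM in SMAD3 deletion, 32.6 to 51.3 CPM with the HPRT guide and 25.7 to 34.3 CPM in the negative control of set A. In set B it stood at 29.1 to 45.4 CPM in LDAH deletion, 17.6 to 39.4 CPM with the HPRT guide and 14 to 34.7 CPM in the negative control. Against the negative control its log2 fold change was 0.33 for SMAD3 deletion, 0.61 for LDAH deletion and 0.42 for HPRT targeting over both sets, with an unadjusted p under 0.05 for the last 2 and an adjusted p over 0.05 in each by edgeR. Without the libraries that stand apart the ACTA2 value was 0.28 for SMAD3 deletion, 0.29 for LDAH deletion and 0.49 for HPRT targeting over both sets. The unadjusted p by edgeR was then under 0.05 only for HPRT targeting, and the adjusted p was over 0.05 in each. The part of ACTA2-expressing cells in the results was not tested. In 7 libraries expression across all genes correlated less with the rest of the set than in the others. In set A these were HPRT replicate 3 and SMAD3 deletion replicate 4; in set B they were HPRT replicates 2 and 4, LDAH deletion replicate 4 and negative control replicates 6 and 7. Ribosomal protein genes took 15.2% and 16.4% of their counts in set A, against 11.7% to 14.4% in the other libraries, and 14.9% to 17.3% in set B, against 9.31% to 11.3%. These 7 libraries are said below to stand apart, and values without them are given where they matter. The targeted genes were measured as a check of the labels. SMAD3 averaged 98.6 ± 16.0 CPM in SMAD3 deletion and 134 ± 9.55 CPM in the negative control (SD, n = 4 each), and LDAH averaged 7.09 ± 3.36 CPM in LDAH deletion (n = 4) and 12.1 ± 3.43 CPM in the negative control (n = 7). HPRT1 averaged 34.1 ± 6.83 CPM with the HPRT guide and 42.8 ± 8.36 CPM in the negative control of set A, and 41.5 ± 12.5 and 48.9 ± 20.8 CPM in set B. A count of 3' ends does not check a cut elsewhere in a gene.

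PTGR1 (ENSG00000106853; GRCh38 chromosome 9, 111549722 to 111599893, minus strand) encodes prostaglandin reductase 1, an NADPH-dependent enzyme that inactivates leukotriene B4 and reduces reactive alkenals of lipid peroxidation. In set A, PTGR1 stood at 168, 178, 166 and 133 CPM in the SMAD3 deletion libraries, at 236, 254, 229 and 236 CPM with the HPRT guide, and at 216, 201, 224 and 216 CPM in the negative control. Every SMAD3 deletion library lay below every library of both other groups, and every HPRT library lay above every negative control library. In set B, it stood at 114, 98.7, 75.6 and 107 CPM in the LDAH deletion libraries and at 129.9, 123, 169.7 and 118 CPM with the HPRT guide, while the 7 negative control libraries ran from 125 to 185 CPM with a median of 147 CPM. Again every deletion library lay below every library of the other groups, here with the HPRT and negative control libraries overlapping. In bulk RNA, fewer cells that express the gene and less of its messenger RNA per cell cannot be told apart.

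The log2 fold change of PTGR1 was -0.40 ± 0.11 (SE; 95% interval -0.63 to -0.17) for SMAD3 deletion against the negative control and -0.60 ± 0.16 (-0.95 to -0.26) for LDAH deletion against its own. These amount to changes of -24.3% and -34.2%. Among the genes tested it had the 24th smallest p of 11467 in set A (unadjusted p = 0.00218) and the 29th of 11769 in set B (unadjusted p = 0.00184). After Benjamini-Hochberg adjustment over all genes edgeR's quasi-likelihood test gave 0.702 and 0.693, so it did not pass in either comparison. PTGR1 was the only one of the 9 genes whose deletion and control libraries did not overlap, lying lower in each; 2.85% of all genes did so for SMAD3 deletion and 0.697% for LDAH deletion. The difference between the deletions in this effect, SMAD3 minus LDAH, was 0.19 ± 0.19 on the log2 scale (95% interval -0.20 to 0.58; adjusted p = 1.00 by the same test), an interval that includes 0 and does not show that the effects are alike.

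The HPRT guide cuts the genome without touching either enhancer, and the deletions were compared with it as well. PTGR1 had a log2 fold change of -0.55 ± 0.11 for SMAD3 deletion against HPRT targeting (interval -0.78 to -0.32), the 4th smallest p of all genes in that comparison (unadjusted p = 0.000149; adjusted p = 0.352 by edgeR with Benjamini-Hochberg adjustment). For LDAH deletion against HPRT targeting it was -0.46 ± 0.18 (interval -0.84 to -0.07; unadjusted p = 0.0222; adjusted p = 0.948). Besides PTGR1, whose libraries lay lower without overlap in both comparisons, SRXN1 did so in SMAD3 deletion and NQO1 in LDAH deletion, as did 1.94% and 1.22% of all genes. PTGR1 and SLC7A11 had an unadjusted p under 0.05 in SMAD3 deletion against HPRT targeting (2 of 9, beside 2.88% of all genes in that direction), and both with HMOX1 in LDAH deletion (3 of 9, beside 2.87%). The comparisons with the HPRT and negative control groups share the deletion libraries and are not independent. HPRT targeting itself gave a log2 fold change of 0.15 ± 0.11 in set A, with no overlap in a direction shared by 2.37% of all genes, -0.15 ± 0.16 in set B and -0.02 ± 0.09 over both sets. The effect in set B minus that in set A was -0.31 ± 0.19 (interval -0.70 to 0.09).

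The call for PTGR1 depended on the test. In set A, DESeq2 gave an adjusted p of 0.0490 for SMAD3 deletion against the negative control and 0.00248 against HPRT targeting, and limma voom with sample quality weights gave 0.197 and 0.0378. Without the libraries that stand apart, edgeR gave -0.32 with an adjusted p of 0.175 against the negative control and -0.50 with 0.0218 against HPRT targeting. In set B the same step gave -0.66 with an adjusted p of 0.0225 for LDAH deletion against the negative control and -0.66 with 0.128 against HPRT targeting, while DESeq2 and limma voom with all libraries gave 0.135 and 0.116 against the negative control. With each library left out in turn, the fold change stayed between -0.45 and -0.31 for SMAD3 deletion against the negative control, the weakest being without SMAD3 deletion replicate 4, and between -0.68 and -0.49 for LDAH deletion, the weakest being without LDAH deletion replicate 3. The labels number the deletion libraries 10 to 13 and the controls 26 to 33 in set A, and 50 to 54 and 55 to 67 in set B, without saying what the numbers mean, and any difference in handling that follows them cannot be told apart from the deletions. ZNF483, a gene on the opposite strand that overlaps PTGR1, stood at 2.04 CPM or less in every library.

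**Figure D1:**
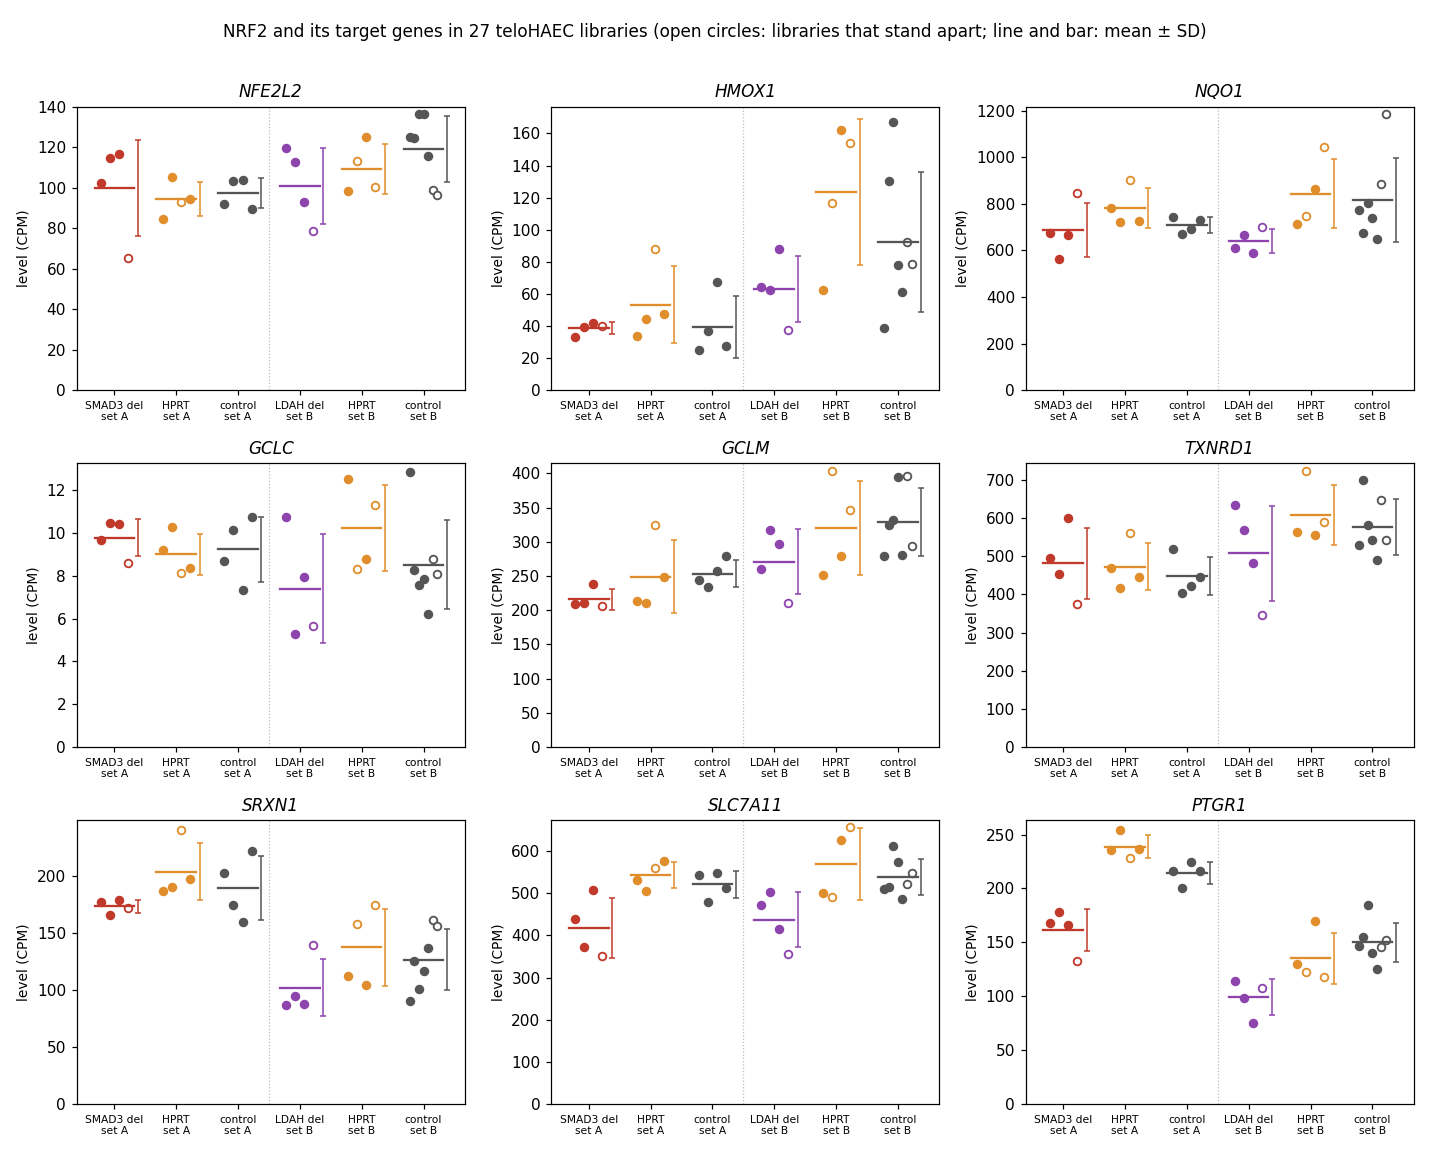
Level of each of the 9 genes (vertical axis, CPM, starting at 0) in each of 27 libraries by group, with the set A groups left of the dotted line. Each circle is a library, open where the library stands apart, the line is the group mean and the bar is 1 SD. In the PTGR1 panel the deletion libraries, at 133 to 178 CPM in set A and 75.6 to 114 CPM in set B, lie below every library of the other groups of their set.

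**Figure D2:**
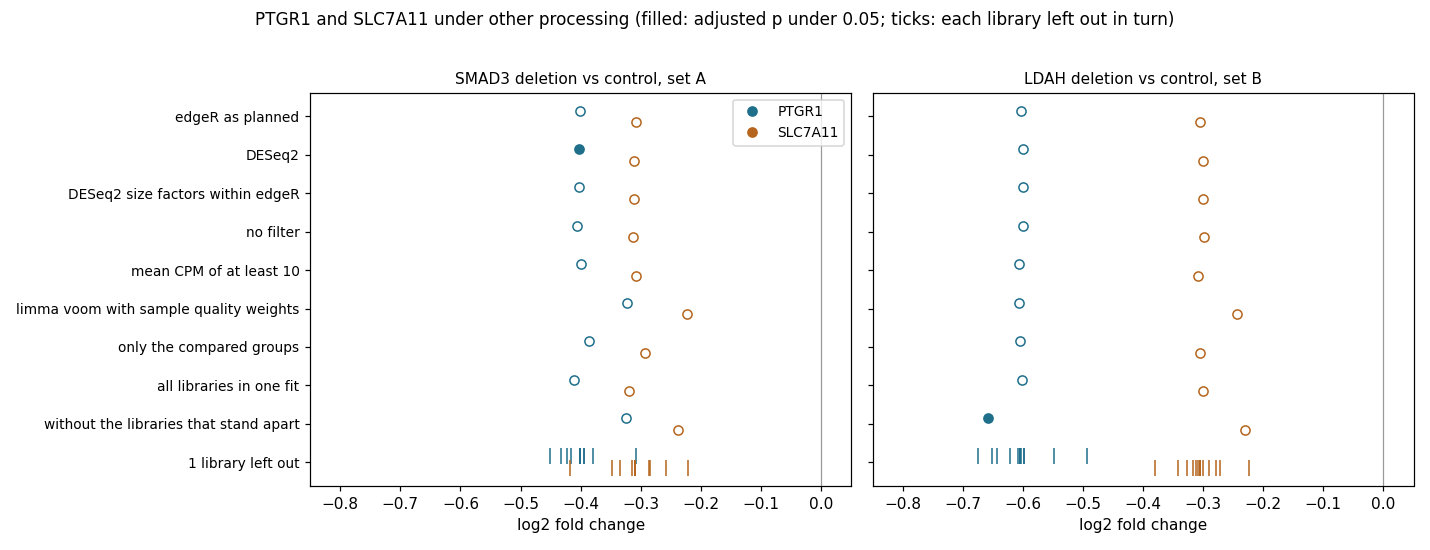
Log2 fold change (horizontal axis) of PTGR1 and SLC7A11 for SMAD3 deletion (left) and LDAH deletion (right) against the negative control under each way of processing, filled where the adjusted p is under 0.05, with ticks for each library left out in turn. Every value is below 0, and the filled points are PTGR1 under DESeq2 for SMAD3 deletion (-0.40) and PTGR1 without the libraries that stand apart for LDAH deletion (-0.66).

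SLC7A11 (ENSG00000151012; chromosome 4, 138164097 to 138242349, minus strand) encodes the cystine transporter xCT, whose import of cystine supplies glutathione synthesis, and is a target of ATF4 as well as of NRF2. It stood at 439, 373, 508 and 351 CPM in the SMAD3 deletion libraries and at 543, 479.6, 549 and 513 CPM in the negative control of set A. In the LDAH deletion libraries it stood at 473, 504, 415 and 357 CPM, while the negative control of set B ran from 486 to 613 CPM with a median of 523 CPM. In each set 3 of the 4 deletion libraries lay below every control library and the remaining deletion library overlapped the controls. The log2 fold change was -0.31 ± 0.12 for SMAD3 deletion (unadjusted p = 0.0224; adjusted p = 0.709, edgeR with Benjamini-Hochberg adjustment) and -0.30 ± 0.14 for LDAH deletion (unadjusted p = 0.0437; adjusted p = 1.00), so neither passed.

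Against HPRT targeting, SLC7A11 had log2 fold changes of -0.36 ± 0.12 for SMAD3 deletion and -0.39 ± 0.16 for LDAH deletion, with adjusted p of 0.746 and 0.948 by the same edgeR test. HPRT targeting over both sets gave 0.06 ± 0.08. The 2 deletion effects on SLC7A11 differed by -0.02 ± 0.18, SMAD3 minus LDAH, with an interval from -0.39 to 0.35 (adjusted p = 1.00). Replicate 4 was the lowest library of each deletion group and stands apart; without the libraries that stand apart the fold changes against the negative control were -0.24 and -0.23. The antisense gene SLC7A11-AS1, whose reads could not be told from those of SLC7A11 if strand was not counted, stood at 4.63 CPM or less in every library.

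SLC3A2 encodes the heavy chain that pairs with xCT at the membrane, and was measured as part of a list of ATF4 targets and partners. It averaged 195 ± 19.01 CPM in SMAD3 deletion and 245 ± 18.4 CPM in the negative control of set A (SD, n = 4 each), a log2 fold change of -0.32 ± 0.11. In set B it averaged 137 ± 17.0 CPM in LDAH deletion (n = 4) and 179 ± 18.6 CPM in the negative control (n = 7), a log2 fold change of -0.39 ± 0.16. The adjusted p was 0.702 for SMAD3 deletion and 0.990 for LDAH deletion (edgeR, Benjamini-Hochberg). Across the 16 genes of that list 10 had a negative fold change in SMAD3 deletion and 15 in LDAH deletion, beside 49.7% and 48.3% of all genes. The medians were -0.07 and -0.36, while the median of all genes was 0.00 and 0.01. By edgeR 0 of the 16 passed in either comparison and 3 in each had an unadjusted p under 0.05, all lower, as did 2.74% and 3.33% of all genes.

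HMOX1 (ENSG00000100292; chromosome 22, 35380361 to 35394214, plus strand) encodes haem oxygenase 1, which breaks down haem to biliverdin, iron and carbon monoxide. It had the widest spread within a group of the 9 genes, with a coefficient of variation of up to 49.3%. In set A it stood at 33.04, 39.5, 41.9 and 39.8 CPM in SMAD3 deletion, at 33.5, 44.5, 88.1 and 47.2 CPM with the HPRT guide, and at 25.2, 36.9, 67.1 and 27.4 CPM in the negative control. In set B it stood at 64.01, 62.6, 88.2 and 37.4 CPM in LDAH deletion and at 62.2, 117, 162 and 154 CPM with the HPRT guide, while the negative control ran from 38.7 to 167 CPM with a median of 78.5 CPM. All these groups overlapped within their set.

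The log2 fold change of HMOX1 was -0.01 ± 0.31 for SMAD3 deletion, -0.55 ± 0.35 for LDAH deletion and 0.43 ± 0.26 for HPRT targeting over both sets (set A alone 0.44 ± 0.31, set B alone 0.43 ± 0.34). LDAH deletion against HPRT targeting gave -0.98 ± 0.40 (interval -1.82 to -0.15; unadjusted p = 0.0240; adjusted p = 0.948, edgeR with Benjamini-Hochberg adjustment), which did not pass. The values moved in both directions when 1 library was left out. Without HPRT replicate 3 of set A, at 88.1 CPM, HPRT targeting gave 0.08 in that set and 0.29 over both. Without negative control replicate 3 of set A, at 67.1 CPM, it gave 0.84 in that set and 0.58 over both. In set B it ranged from 0.27 (without HPRT replicate 3) to 0.65 (without HPRT replicate 1). Without all libraries that stand apart the value over both sets was 0.16. The LDAH deletion value was -0.34 without negative control replicate 3 of set B.

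The remaining targets showed no group of deletion libraries clear of its control. NQO1 (ENSG00000181019; chromosome 16, 69706996 to 69726951, minus strand), a quinone reductase and a standard readout of NRF2, averaged 687 ± 118 CPM in SMAD3 deletion and 709 ± 33.03 CPM in the negative control (n = 4 each), and 642 ± 50.9 CPM in LDAH deletion (n = 4) and 817 ± 181 CPM in the negative control (n = 7). Its log2 fold changes were -0.03 ± 0.13 and -0.35 ± 0.17 (adjusted p = 0.957 and 1.00, edgeR with Benjamini-Hochberg adjustment). Negative control replicates 6 and 7 of set B, which stand apart, were at 886 and 1187 CPM. Without replicate 7 the LDAH deletion value was -0.24. In LDAH deletion NQO1 lay at 589 to 699.9 CPM in every library, below the 714 to 1046 CPM of the HPRT libraries of set B. SRXN1 (ENSG00000271303; chromosome 20, 646615 to 653370, minus strand), sulfiredoxin, repairs overoxidised peroxiredoxins. It averaged 173 ± 5.89 CPM in SMAD3 deletion and 189.8 ± 28.1 CPM in the negative control, a log2 fold change of -0.12 ± 0.13, and 102 ± 25.2 CPM in LDAH deletion and 127 ± 26.9 CPM in the negative control, a log2 fold change of -0.31 ± 0.21. In LDAH deletion its level was 86.7, 94.5 and 87.8 CPM in replicates 1 to 3 and 139.6 CPM in replicate 4, which stands apart. The fold change was -0.51 without that replicate and -0.36 ± 0.14 without all libraries that stand apart.

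GCLC and GCLM encode the catalytic and the modifier subunit of glutamate-cysteine ligase, the rate-limiting enzyme of glutathione synthesis. GCLM (ENSG00000023909; chromosome 1, 93885205 to 93909456, minus strand) stood at 209.6, 210.3, 239 and 206 CPM in SMAD3 deletion and at 244, 234, 257 and 279.7 CPM in the negative control, where only SMAD3 deletion replicate 3 reached the range of the controls. The log2 fold change was -0.22 ± 0.14 in SMAD3 deletion and -0.28 ± 0.17 in LDAH deletion, where the level averaged 271 ± 47.1 CPM against 329 ± 49.5 CPM. GCLC (ENSG00000001084; chromosome 6, 53497341 to 53616970, minus strand) was counted at 5.29 to 12.8 CPM in all 27 libraries and gave 0.10 ± 0.17 and -0.20 ± 0.29. TXNRD1 (ENSG00000198431; chromosome 12, 104215779 to 104350305, plus strand), the cytosolic thioredoxin reductase, gave 0.11 ± 0.15 in SMAD3 deletion (481 ± 93.9 against 448 ± 50.9 CPM) and -0.19 ± 0.16 in LDAH deletion (508 ± 125 against 576 ± 73.4 CPM). Without LDAH deletion replicate 4, which stands apart, the LDAH values were -0.05 for TXNRD1 and -0.18 for GCLM. That of GCLC ranged from -0.44 without LDAH deletion replicate 1 to -0.07 without replicate 2. None of these passed the adjustment over all genes (adjusted p from 0.775 to 1.00 by edgeR).

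NFE2L2 itself (ENSG00000116044; chromosome 2, 177227595 to 177392697, minus strand) averaged 99.8 ± 23.8 CPM in SMAD3 deletion and 97.3 ± 7.38 CPM in the negative control (n = 4 each), a log2 fold change of 0.05 ± 0.16. In LDAH deletion it averaged 101 ± 18.6 CPM (n = 4) and in the negative control 119 ± 16.4 CPM (n = 7), which gave -0.24 ± 0.16 as log2 fold change, and -0.15 once LDAH deletion replicate 4 was left out. That step kept negative control replicates 6 and 7 of set B, which also stand apart and were the lowest controls, at 99.1 and 96.3 CPM. The other controls stood at 116 to 137 CPM, and LDAH deletion replicates 1 to 3 at 119.5, 113 and 92.8 CPM. SMAD3 deletion replicate 4, at 65.3 CPM, was the lowest library of all and stands apart; without the libraries that stand apart the SMAD3 value was 0.20 ± 0.10 (unadjusted p = 0.0590; adjusted p = 0.491, edgeR with Benjamini-Hochberg adjustment). NFE2L2 is annotated across AGPS on the opposite strand, which stood at 67.7 to 101 CPM, and the sources used here do not state whether reads were counted by strand.

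Of the 9 genes, 6 had a negative fold change in SMAD3 deletion and 9 in LDAH deletion, against 49.7% and 48.3% of all genes. The medians over the 9 genes were -0.03 and -0.30, beside 0.00 and 0.01 over all genes. By edgeR 0 of the 9 passed the adjustment in either comparison, as did 0% of all genes. However, 2 of the 9, PTGR1 and SLC7A11, had an unadjusted p under 0.05 with a lower level in each. Of all genes 2.74% had one for SMAD3 deletion and 3.33% for LDAH deletion. DESeq2 called 1 of the 9 in SMAD3 deletion (PTGR1) and 0 in LDAH deletion, beside 14 of all genes in each. Limma voom called 0 of the 9 in both, beside 2 and 0 of all genes. Against HPRT targeting the counts of negative fold changes were again 6 in SMAD3 deletion, beside 47.4% of all genes, and 9 in LDAH deletion, beside 48.3%. Without the libraries that stand apart the counts against the negative control were still 6 and 9, with medians of -0.12 and -0.24. For HPRT targeting over both sets, 6 of the 9 had a positive fold change, while 53.2% of all genes had a negative one. The values ran from -0.09 (NFE2L2) to 0.43 (HMOX1). By edgeR 0 of 9 passed, as with DESeq2 and limma voom, beside 0, 1 and 6 of all genes. Of the 9 genes, 0 had an unadjusted p under 0.05, beside 1.81% of all genes with a higher and 1.39% with a lower level. Each set alone also gave 6 of 9 positive values, beside 51% (set A) and 53.1% (set B) of all genes with a negative one. Without the libraries that stand apart the count over both sets was 5.

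**Figure D3:**
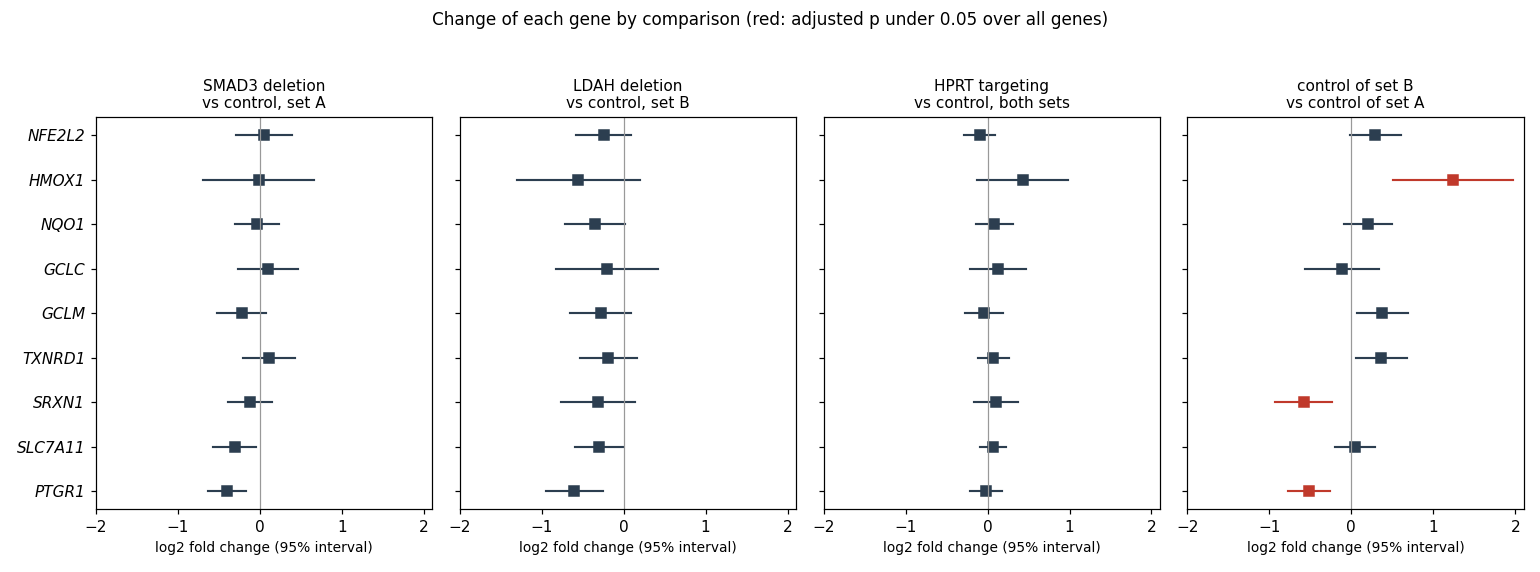
Log2 fold change (horizontal axis, squares) with its 95% interval (lines) of each of the 9 genes in 4 comparisons, red where the adjusted p over all genes is under 0.05. PTGR1 and SLC7A11 are the genes whose intervals lie below 0 in both deletion panels, and red appears only in the comparison of the negative controls, for HMOX1, SRXN1 and PTGR1.

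**Figure D4:**
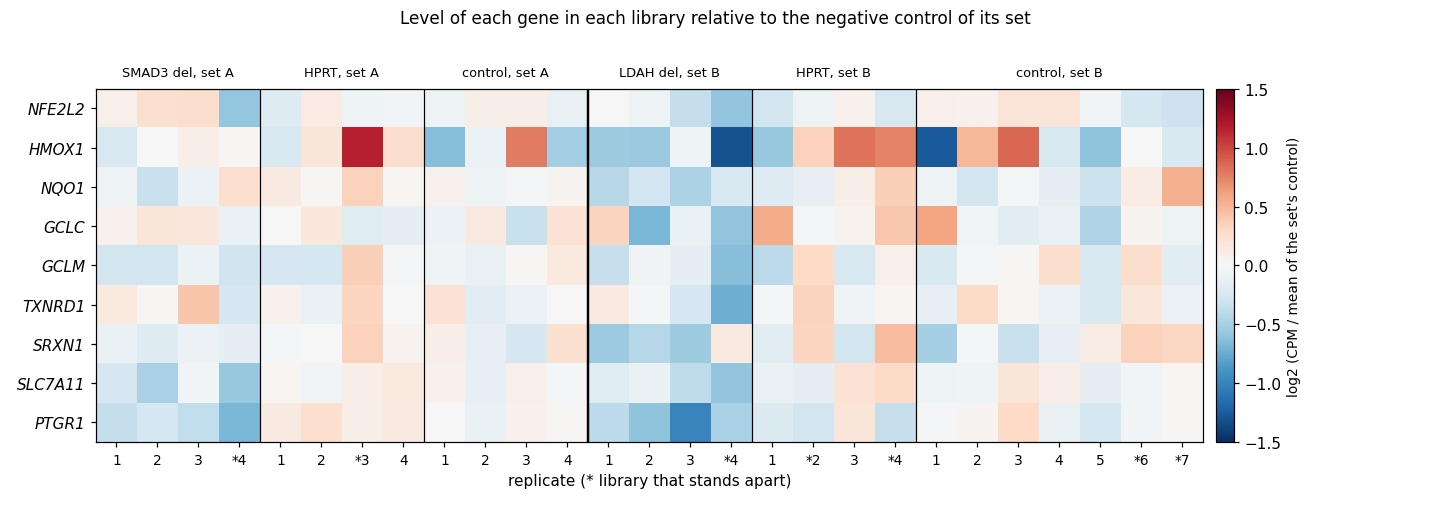
Level of each gene (rows) in each library (columns, replicate number, with an asterisk where the library stands apart) as the log2 ratio to the mean of the negative control of its set. Blue is lower and red higher; the PTGR1 row is blue in all 8 deletion libraries, and the HMOX1 row holds both the deepest blue and the deepest red.

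The genes around NRF2 were read from lists. Of 11 regulators and partners, 6 had a higher and 5 a lower level in each deletion. Of all genes, 49.7% were lower in SMAD3 deletion and 48.3% in LDAH deletion. By edgeR 0 passed in either, as did 0% of all genes. At an unadjusted p under 0.05 there were 0 in SMAD3 deletion and 1 in LDAH deletion, beside 6.78% and 4.61% of all genes. The smallest p in SMAD3 deletion belonged to KEAP1 (0.18 ± 0.11) and the small MAF gene MAFK (-0.21 ± 0.14). In LDAH deletion it belonged to MAFG, another small MAF partner of NRF2, at 55.3, 43.9, 48.1 and 60.5 CPM in the deletion libraries and 63.9 to 96.7 CPM (median 86.3) in the negative control. MAFG did not overlap between these groups and lay lower in LDAH deletion, as did 0.697% of all genes. Its log2 fold change was -0.66 ± 0.17 (unadjusted p = 0.000951, adjusted p = 0.693, edgeR with Benjamini-Hochberg adjustment). The adjusted p was 0.0282 without the libraries that stand apart and 0.0429 with all 27 libraries in the fit. SQSTM1, an autophagy receptor that sequesters KEAP1 and is itself an NRF2 target, gave 0.23 ± 0.15 in LDAH deletion and 0.24 ± 0.09 for HPRT targeting over both sets (set A alone 0.23 ± 0.12, set B alone 0.25 ± 0.15), where CUL3 gave -0.19 ± 0.12.

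Of 39 further NRF2 targets, 33 had rows and 32 were tested. Of those tested, 16 were lower in SMAD3 deletion and 18 in LDAH deletion, beside 49.7% and 48.3% of all genes. Their medians were 0.00 and -0.09. By edgeR 0 passed in either; at an unadjusted p under 0.05 there were 1 higher and 4 lower in SMAD3 deletion, beside 4.05% and 2.74% of all genes, and 4 lower in LDAH deletion, beside 3.33%. Without the libraries that stand apart, 26 of the 32 were lower in SMAD3 deletion and 20 in LDAH deletion, with 0 and 1 passing. Of all genes 50.7% and 50.1% were lower in these fits, and 1 of 11574 and 212 of 12153 passed. The smallest p in SMAD3 deletion belonged to TRIM16L, at 41.5, 58.9, 58.1 and 44.4 CPM against 58.2, 77.8, 81.8 and 87.5 CPM in the negative control, and to TRIM16, a ubiquitin ligase gene, at 44.2, 46.6, 50.5 and 55.1 CPM against 67.2, 64.3, 66.7 and 75.01 CPM. Their log2 fold changes were -0.58 ± 0.16 and -0.47 ± 0.17 (adjusted p = 0.702 for both, edgeR with Benjamini-Hochberg adjustment). The pair are near copies, so reads could be split between them.

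The smallest p among these targets in LDAH deletion belonged to TXN, thioredoxin, the substrate of TXNRD1. It stood at 167, 147, 121 and 343 CPM in the LDAH deletion libraries, while the negative control ran from 262 to 608 CPM with a median of 384 CPM. Replicates 1 to 3 lay below every control and replicate 4, which stands apart, lay within their range. The log2 fold change was -1.12 ± 0.29 (unadjusted p = 0.00130; adjusted p = 0.693, edgeR with Benjamini-Hochberg adjustment), and without the libraries that stand apart it was -1.33 with an adjusted p of 0.000106. In set A the same gene averaged 382 ± 73.5 CPM in SMAD3 deletion and 418 ± 62.1 CPM in the negative control (n = 4 each). MGST1, a microsomal glutathione transferase, gave -0.50 ± 0.21 in LDAH deletion (adjusted p = 1.00), at 171 ± 25.8 CPM against 240.5 ± 60.8 CPM.

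For HPRT targeting over both sets, 20 of the 32 further targets had a higher level, 2 of them with an unadjusted p under 0.05, and 0 passed. Of all genes 53.2% had a lower level, 1.81% were higher at an unadjusted p under 0.05, and 0% passed. The smallest p belonged to AKR1C3, an aldo-keto reductase (0.49 ± 0.19), and BLVRB, a biliverdin reductase (0.39 ± 0.17, and 0.23 without HPRT replicate 4 of set B; adjusted p = 0.937 for both, edgeR with Benjamini-Hochberg adjustment). Of 24 other antioxidant enzymes, 16 were higher and 8 lower in SMAD3 deletion, led by CAT, catalase (0.39 ± 0.19, and 0.16 without SMAD3 deletion replicate 4, which stands apart), and MSRB3 (0.17 ± 0.10), and 13 higher and 11 lower in LDAH deletion, led by GLRX, glutaredoxin (-1.09 ± 0.42), and MSRB3 (0.22 ± 0.14). HPRT targeting over both sets gave 18 higher and 6 lower, with TXN2 at 0.26 ± 0.13 (0.06 without HPRT replicate 4 of set B, and -0.02 without all libraries that stand apart), and by edgeR 0 of the 24 passed in any of these comparisons. At an unadjusted p under 0.05 there were 0 in SMAD3 deletion, 1 in LDAH deletion and 1 for HPRT targeting, beside 6.78%, 4.61% and 3.19% of all genes. Of all genes 49.7%, 48.3% and 53.2% were lower in these comparisons, in the same order. GPX7, named by the same rule, averaged 0.373 CPM with the HPRT guide and 2.21 CPM in the negative control of set B, near the limit of detection, and no fold change is given. Among ATF4 targets and partners, PHGDH gave -0.81 ± 0.34 in SMAD3 deletion, and ATF4 and XPOT -0.25 ± 0.13 and -0.24 ± 0.14 for HPRT targeting. CEBPB gave -1.24 ± 0.46 in LDAH deletion and did not pass (adjusted p = 0.971 by edgeR), at 7.19 ± 6.58 CPM against 16.6 ± 4.30 CPM. Without the libraries that stand apart CEBPB gave -2.02 (adjusted p = 0.00514 by edgeR).

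The p53 targets, which respond to DNA cuts, are given beside these lists for scale. Of these, 10 of 10 were higher in SMAD3 deletion, 8 of 10 in LDAH deletion and 10 of 10 for HPRT targeting over both sets, with medians of 0.46, 0.36 and 0.32. By edgeR 0 of the 10 passed in any of these, and 8, 3 and 6 had an unadjusted p under 0.05, all higher, as did 4.05%, 1.28% and 1.81% of all genes. The smallest p belonged to FAS (0.82 ± 0.26) and MDM2 (0.49 ± 0.16) in SMAD3 deletion, to MDM2 (0.68 ± 0.16; adjusted p = 0.00728 by edgeR without the libraries that stand apart) and CDKN1A (0.54 ± 0.22) in LDAH deletion, and to MDM2 (0.53 ± 0.12) and CDKN1A (0.51 ± 0.14) for HPRT targeting. Their part in the values of PTGR1 and SLC7A11 was not tested.

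Among the 10 comparisons fitted, edgeR called genes only between the negative controls, set B against set A: 1157 of 12055 (9.6%), 5.11% higher and 4.49% lower, and 3 of the 9 genes were among them. The set was confounded with whatever handling went with it, and the 2 cannot be told apart. HMOX1 had a log2 fold change of 1.24 ± 0.36 (adjusted p = 0.0264), with means of 92.3 ± 43.5 CPM in set B (n = 7) and 39.2 ± 19.3 CPM in set A (n = 4). SRXN1 fell by 0.58 ± 0.17 on the log2 scale (adjusted p = 0.0264), at 127 ± 26.9 CPM against 189.8 ± 28.1 CPM. PTGR1 fell by 0.52 ± 0.12 (adjusted p = 0.00796), at 149.9 ± 18.3 CPM against 214 ± 9.85 CPM, and its libraries did not overlap, as was true of 6.69% of all genes in that direction.

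GCLM libraries did not overlap either, at 280.0 to 396 CPM in set B and 234 to 279.7 CPM in set A, a direction shared by 5.21% of all genes, yet its log2 fold change of 0.38 ± 0.15 did not pass (adjusted p = 0.125, edgeR with Benjamini-Hochberg adjustment). TXNRD1 gave 0.36 ± 0.15, NFE2L2 0.29 ± 0.15 and NQO1 0.20 ± 0.14, while SLC7A11 gave 0.05 ± 0.12 and GCLC -0.11 ± 0.22. GCLM, TXNRD1 and NFE2L2 passed under limma voom and without the libraries that stand apart. Of all genes, 3639 of 12055 and 3482 of 12366 passed in these fits, against 1157 in the planned fit. The call for PTGR1 held with each library left out in turn (adjusted p from 0.00622 to 0.0324). That of HMOX1 was lost without negative control replicates 1 (adjusted p = 0.120), 2 (0.0834) or 4 (0.112) of set A or replicate 3 of set B (0.0517). That of SRXN1 was lost without replicates 1 (0.0856) or 4 (0.120) of set A or replicates 1 (0.0763), 2 (0.0578), 3 (0.0773) or 4 (0.0620) of set B, and both were lost with only the compared groups in the fit (0.0569 and 0.0606).

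Among the listed genes, the control comparison called SQSTM1 (0.64 ± 0.13), TKT (0.84 ± 0.13), ABCC4 (0.83 ± 0.18), EPHX1 (1.15 ± 0.35), PGD (0.42 ± 0.13), CBR1 (0.48 ± 0.15), TXNRD2 (0.96 ± 0.17), XPOT (0.63 ± 0.20) and RRM2B (0.59 ± 0.18) as higher in set B, and SLC3A2 (-0.45 ± 0.13) and MAFF (-0.49 ± 0.16) as lower. They are named because they were called, and most genes of the lists were not. Of all genes 9.6% were called in this comparison, 5.11% higher and 4.49% lower. TKT and PGD encode enzymes of the pentose phosphate pathway, which supplies NADPH. With each library left out in turn, the calls of SQSTM1, TKT, ABCC4 and TXNRD2 held, while that of MAFF was lost in 21 of 27 fits and those of EPHX1, PGD, CBR1, XPOT, RRM2B and SLC3A2 in 4 to 9 of 27. With only the compared groups in the fit the calls of CBR1, XPOT and RRM2B were lost (adjusted p = 0.0706, 0.0609 and 0.0954, edgeR). That of MAFF was lost with DESeq2 size factors (0.0567), with no filter (0.0761) and with the filter at a mean of 10 CPM (0.0532).

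Ordered by mean level, PTGR1 ran from HPRT of set A (239 CPM) through the negative control of set A (214), SMAD3 deletion (161), the negative control of set B (149.9) and HPRT of set B (135) to LDAH deletion (98.8). Its libraries overlapped between neighbours in this order only for SMAD3 deletion with the negative control of set B and for that control with HPRT of set B. For each of the other 8 genes every pair of neighbours overlapped. HMOX1, GCLM, TXNRD1 and NFE2L2 had their 3 highest means in the 3 groups of set B, and SRXN1 and PTGR1 had the highest 3 in set A. LDAH deletion had the lowest mean of all 6 groups for NQO1, GCLC, SRXN1 and PTGR1, and SMAD3 deletion for HMOX1, GCLM and SLC7A11.

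Within groups the 9 genes did not move as a block. Over the deviations of log2 CPM from group means, the 36 pairs had correlations, averaged over set A (12 libraries) and set B (15 libraries), from -0.62 (NFE2L2 with NQO1) to 0.61 (GCLM with TXNRD1) with a median of 0.17, and 19 pairs were positive in both sets. These are descriptions, since the libraries share depth and composition, and pairs of other genes were not counted beside them. The 7 libraries that stand apart were kept in, and their part in these correlations was not tested. The libraries that stand apart were also compared with the libraries of their own group that do not. In 6 of the 7, NQO1 was above all of these, as was SRXN1, whereas NFE2L2 and PTGR1 were below all of these in 4 of 7 each. GCLM was above in 4 and below in 2, TXNRD1 above in 3 and below in 2, and SLC7A11 above in 1 and below in 3. GCLC was below in 3, and HMOX1 above in 1 and below in 1. The 7 libraries were picked by their lower correlation across all genes. The share of all genes lying outside their group in this way was not counted, so these counts describe the libraries.

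The genes whose deviations were most like those of 8 of the 9, among 8136 genes with a mean of at least 10 CPM in both sets, were NOL10 for NFE2L2 (mean r = 0.88), ACSL3 for HMOX1 (0.84), ANXA7 for NQO1 (0.92), UEVLD for GCLC (0.66), TRIM16 for GCLM (0.86), CACYBP for TXNRD1 (0.90), OIP5 for SRXN1 (0.85) and PTK2 for SLC7A11 (0.75). The next in likeness to SLC7A11 were ZZZ3 and SRFBP1 (0.67 for both). For GCLM they were CAP1 (0.85) and BAG2 (0.84), and for HMOX1 ICE2 (0.78) and VEGFA (0.76). TRIM16, the nearest gene to GCLM, was also listed above as an NRF2 target. The libraries that stand apart were kept in for these correlations too.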

How the data were processed

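Messenger RNA was measured in 27 libraries made with QuantSeq 3' FWD, a kit that marks strand, and read single-end for 86 cycles, per the labels' protocols. The authors deposited whole-number read counts per gene, 14008 genes by 27 libraries. Per the submitters' processing notes the build was hg38 and edgeR 3.24.3 was used; aligner, counter and strand setting are not given in sources used here. Tags sit at transcript ends, so counts were not divided by gene length. Symbols were matched for all but 94 genes, and positions come from GENCODE 29.

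For every comparison edgeR 4.0.16 (R 4.3.3) was used with TMM scaling, filterByExpr with the group, group means, the quasi-likelihood test (two-sided) and Benjamini-Hochberg adjustment over all genes at 0.05. Models were fitted to set A (12 libraries, 11467 genes), set B (15, 11769), the 19 HPRT and negative control libraries with set as a covariate (11836) or all 27 (12055). SE is the fold change over the square root of F. Libraries stand apart when their median correlation with the set lies over 3 scaled median absolute deviations below its median. CPM share 1 scaling over 27 libraries; intervals and limits cover no amplification error, and a count of 0 allows 0.387 to 0.875 CPM (3 counts). For every pair of replicates chi-square over its degrees of freedom was 3.03 or more, so none was a copy. The tests were checked on simulated data. Alternatives were DESeq2 1.42.0, its size factors, limma 3.58.1 voom, 2 filters, 2 sample choices and leaving out libraries. The 9 genes, the lists and the naming rule (all list genes past the threshold, the 2 smallest p of each list and the 3 most alike genes) were chosen with earlier results of these data known. The likeness of other genes to PTGR1 is not reported here.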

Additional observations from a re-analysis of the deposited data

Results flagged for a closer look

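Each of the 9 genes was looked at in each of the 6 groups for a library far from the rest of its group by Dixon's criterion, 54 looks in all, of which 3 were met; chance alone meets it in about 1 in 20. GCLC stood at 12.8 CPM in negative control replicate 1 of set B, where the other 6 libraries stood at 6.22 to 8.78 CPM. GCLM stood at 239 CPM in SMAD3 deletion replicate 3, where the other 3 libraries stood at 206 to 210.3 CPM, and this is the library that overlapped the control. SRXN1 stood at 139.6 CPM in LDAH deletion replicate 4, which stands apart, where the other 3 libraries stood at 86.7 to 94.5 CPM.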

How the results depend on the processing

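No paired analysis was possible because the labels pair no libraries. Of 2295 repeats of the 90 reported fold changes, 33 changed sign, none of a value that passed the adjusted test; the causes were not tested. SLC7A11 in the difference between deletion effects became 0.00717 with no filter, 0.00867 with a filter at a mean of 10 CPM and 0.00747 without the libraries that stand apart. HMOX1 in SMAD3 deletion became 0.0403 under limma voom and 0.00173 with only the compared groups. For HPRT targeting over both sets PTGR1 became 0.12 under limma voom, 0.00262 with all libraries in the fit and 0.091 without the libraries that stand apart, where TXNRD1, SRXN1 and TXN2 became -0.0267, -0.0312 and -0.0219. With 1 library left out, ranges that crossed 0 were -0.128 to 0.0838 (SLC7A11, difference between deletion effects), -0.036 to 0.22 (NFE2L2, SMAD3 deletion), -0.18 to 0.38 (HMOX1, SMAD3 deletion), -0.14 to 0.0502 (NQO1, SMAD3 deletion), -0.0128 to 0.23 (TXNRD1, SMAD3 deletion), -0.10 to 0.013 (GCLM, HPRT targeting) and -0.0694 to 0.0224 (PTGR1, HPRT targeting).

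Without the libraries that stand apart edgeR called 1 gene for SMAD3 deletion, 212 for LDAH deletion, 55 and 77 for these against HPRT targeting, 1 for HPRT targeting in set A, 1 over both sets, 68 for the difference between deletion effects, 1 for that between HPRT effects and 3482 between the negative controls. DESeq2 called 14, 14 and 17 genes for SMAD3 deletion, LDAH deletion and SMAD3 deletion against HPRT targeting, 1 for HPRT targeting in set A and 1 over both sets, 4 for the difference between deletion effects and 2 for that between HPRT effects. Limma voom called 2 for SMAD3 deletion, 5 against HPRT targeting, 6 for HPRT targeting over both sets, 1 for the difference between deletion effects and 3639 between the negative controls, and the fit of all libraries called 9 for LDAH deletion. With 1 library left out, counts ran from 0 to 3 for LDAH deletion (3 without replicate 4), 0 to 2 for SMAD3 deletion against HPRT targeting (2 without HPRT replicate 3 of set A), 0 to 4 for the difference between deletion effects (4 without LDAH deletion replicate 4), 0 to 1 for that between HPRT effects (1 without HPRT replicate 3 of set A) and 693 to 1328 between the negative controls (the lowest 3 without negative control replicates 1, 2 and 4 of set A). The common dispersion was 0.195 in set B and 0.0434 in set A.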
